A study of Mus musculus with 6 samples.

Results

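Replication-dependent histone genes were followed in the single-cell libraries of H22 liver tumors. The group was defined by gene symbol, as every feature row named H1f1 to H1f5 or named H2ac, H2bc, H3c or H4c with a number. Of 34099 gene rows, 66 had such a symbol, and the 61 with at least 10 UMIs in total were kept. A UMI (unique molecular identifier) labels single captured RNA molecules, and copies made from 1 molecule by amplification count once. The 61 genes were 5 linker histone H1 genes, 16 H2A genes, 16 H2B genes, 11 H3 genes and 13 H4 genes, and they held 584167 UMIs. The total UMI count chose the members and was not tested. The member closest to the limit was H4c17 with 201 UMIs, and the 5 rows left out were H2bc23 and H2ac1 with 2 UMIs each, H2ac19 with 1, and H2bc1 and H3c14 with 0.

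The tumors came from 3 control mice and 3 stress mice, with 1 library per mouse. All were male wild type C57BL/6J mice, obtained at 8 weeks of age, that carried H22 cells (a murine hepatocellular carcinoma line grown first as ascites) implanted in the liver. Stress mice went through chronic unpredictable mild stress, with 2 stressors a day over 21 days, while control mice received the same tumor cells and no stressor. According to the paper, the tumor cells were implanted once the stress protocol and its behavioral tests were over. The comparison asks how the chronic stress protocol bears on gene expression in the cells of the tumor. Reads of the control libraries were counted with Cell Ranger 9.0.0, as the matrices state, and those of the stress libraries with 7.1.0, so an effect of this version and one of stress cannot be told apart.

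Replication-dependent histone genes supply the histones that package newly made DNA. Their transcripts are made in S phase from gene clusters, and the factor NPAT gathers there with the transcription machinery. Most of these mRNAs have no introns and no poly(A) tail. They end in a short stem-loop that is bound by SLBP. The precursor RNA is cut a few bases after the stem-loop with the help of the U7 snRNP, whose specific subunits are LSM10 and LSM11, and the stem-loop stays on the mRNA. The H2A, H2B, H3 and H4 proteins form the nucleosome core, and H1 proteins bind the DNA between nucleosomes. The libraries were primed with poly(dT), which pairs with poly(A), so an RNA without a tail is captured poorly and a tailed form of the same gene is captured well. The values below are therefore levels of captured RNA and not of all histone mRNA.

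Of the 61 members, 50 lie on mouse chromosome 13, 8 on chromosome 3, 2 on chromosome 11 and 1, H4c16, on chromosome 6. Stem-loops were searched by their letters in the transcripts of the GENCODE M21 annotation (GRCm38). The pattern spans 16 bases with GG, CT, AG and CC at fixed places, and 42 members had it, 21 to 58 bases after the stop codon. The stem-loops below, with their flanks, are shown because they mark the kind of mRNA end that sets these genes apart. Capitals mark the 16 bases of the stem-loop, and the 3′ UTR is the part of the transcript after the stop codon, where each of them lies.
H1f4 (chr13:23621777-23621802, minus strand): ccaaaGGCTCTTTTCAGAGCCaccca
H2ac8 (chr13:23570663-23570688, minus strand): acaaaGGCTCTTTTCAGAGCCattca
H2bc12 (chr13:22036295-22036320, plus strand): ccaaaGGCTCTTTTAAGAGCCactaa
H3c3 (chr13:23745042-23745067, minus strand): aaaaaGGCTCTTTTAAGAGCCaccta
H4c4 (chr13:23581945-23581970, plus strand): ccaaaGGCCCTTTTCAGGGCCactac
H4c9 (chr13:22040961-22040986, minus strand): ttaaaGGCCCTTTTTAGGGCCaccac
H4c11 (chr13:21735432-21735457, plus strand): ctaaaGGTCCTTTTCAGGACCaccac
The letters of H1f4 and H2ac8 were shared by 23 members of the H1, H2A, H2B and H3 families. All 12 H4 members with a stem-loop had another stem, starting with GGCCC or, in H4c2 and H4c11, with GGTCC, while the 30 members of the other families started with GGCTC. No match was found in the annotated transcripts of H1f5, H1f1 and H2bc4, which does not show that their mRNAs lack a stem-loop. The annotated H1f5 transcript ended at its stop codon, while that of H2bc4 went on for 742 bases.

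Promoters were taken from RefSeq (GRCm38.p6), where 52 of the 61 members matched by symbol. The promoters below are shown because H1f5 and H4c4 were the members with the most captured RNA, and H2bc12 carries the octamer of H2B promoters. Each run is the 150 bases before the RefSeq start, and capitals mark 4 motifs. AAACACA is known as the H1 box. CCAAT is bound by NF-Y and is also marked where it reads ATTGG, its reverse complement. TATAAA is the TATA box. ATTTGCAT is the octamer bound by OCT1.
H1f5 (chr13:21780626-21780775, minus strand): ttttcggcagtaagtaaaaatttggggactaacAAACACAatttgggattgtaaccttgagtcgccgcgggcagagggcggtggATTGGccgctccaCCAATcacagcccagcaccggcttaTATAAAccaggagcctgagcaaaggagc
H2bc12 (chr13:22035671-22035820, plus strand): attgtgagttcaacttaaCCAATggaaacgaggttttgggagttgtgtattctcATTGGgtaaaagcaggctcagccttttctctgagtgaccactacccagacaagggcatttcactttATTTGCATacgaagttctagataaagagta
H4c4 (chr13:23581418-23581567, plus strand): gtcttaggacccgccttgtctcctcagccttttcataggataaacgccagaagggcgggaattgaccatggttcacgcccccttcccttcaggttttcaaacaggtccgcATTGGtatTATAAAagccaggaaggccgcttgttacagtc
Each motif was searched on both strands in the 250 bases before and 50 bases after the start, and matches of different motifs could overlap. The octamer was found in 5 of 15 H2A promoters, in 5 of 12 H2B promoters and in 1.75% of all 27025 promoters of the table. The H1 box was found in 4 of 5 H1 promoters and in 7.14% of all promoters. CCAAT was found in 44 of 52 member promoters, among them 3 of 11 H4 promoters, and in 37.9% of all promoters. TATAAA was found in 61.5% of the member promoters and in 14.2% of all promoters. These matches describe letters and not binding.

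The annotation of the authors names 10 cell types, and these labels were used. The median UMI count per cell ran from 7166 to 20478 over the 6 libraries, and any pair of libraries had 13 to 40 cell barcodes in common. A level in CPM is the UMIs of a gene, summed over the cells of a type in a mouse, per 1000000 UMIs of all genes in those cells. Most labels went with their markers, and that of M-MDSCs went against them. The M-MDSC markers Arg1 and Ly6c2 (monocytic myeloid-derived suppressor cells) summed to 0.0 to 17.8 CPM in the cells labelled M-MDSCs and to 836.6 to 2142.2 in monocytes, while the tumor markers Krt18, Krt8 and Afp summed to 286.2 to 547.6 in the cells labelled M-MDSCs. The tumor markers were also high in HSCs (hepatic stellate cells) of control mice 2 and 3, at 1910.6 and 1594.8. Cells labelled inflammatory myeloid cells carried the neutrophil markers S100a8, S100a9 and Ly6g at 13922.9 to 31923.4 CPM. In such a sum, more cells with the RNA and more RNA per cell cannot be told apart.

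Most captured histone RNA came from a few genes. H4c4 held 14.4% of the member UMIs (83839), H1f5 13.5% (79001), H1f4 7.66% (44722), H2ac8 7.59% (44318), H2ac24 5.33% (31115) and H1f2 5.18% (30232). Per kilobase of annotated exon, the order was H1f5 with 106327 UMIs, H4c4 with 73672, H2ac24 with 64554, H2ac8 with 62952 and H3c3 with 36937. The leading H2B and H3 genes by UMIs were H2bc4 (15990), H2bc12 (8613), H3c3 (23270) and H3c6 (22933). The lowest H1 gene was H1f1 with 568 UMIs. Copies of these genes are close in sequence, and the share of a transcript's 100-base windows found in another gene ranged from 0% in H4c4, H1f5, H1f1, H4c14 and H2bc21 to 99.8% in H2bc24. For members with high shares, how counting divided reads between copies was not tested, and their values are uncertain. H1f4 and H2bc6 overlap on the same strand, so their counts are not fully separate. H2ac25, H2bc18, H2ac18 and H2ac6 overlap genes outside the group on the same strand (Trim17, Gm42743, Gm20634 and Gm24991). How these overlaps bear on their counts was not tested.

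The summed level of the 61 genes differed between cell types and between groups of mice. In tumor cells it was 459.8, 415.6 and 438.0 CPM in control mice 1 to 3 and 722.3, 893.1 and 726.7 CPM in stress mice 1 to 3. The stress mice were all higher, with means of 437.8 ± 22.1 and 780.7 ± 97.4 CPM (SD, n = 3) and a ratio of 1.78. In NK/T cells the sums were 535.3, 629.9 and 741.2 CPM in control mice against 1888.0, 1909.9 and 1982.3 CPM in stress mice, a ratio of 3.03. In B cells they were 555.3, 356.0 and 551.2 CPM against 1205.3, 1202.2 and 995.4 CPM, a ratio of 2.33. The groups did not overlap in these cell types, nor in neutrophils, which had too few cells for a test.

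Other cell types had sums that overlapped between the groups. ECs (endothelial cells) had the lowest sums in controls, with means of 204.6 ± 30.4 CPM against 270.7 ± 40.1 CPM under stress. Their H2A sum alone was higher in every stress mouse (46.3 ± 0.907 and 67.2 ± 9.94 CPM), as was their H2B sum (35.4 ± 5.65 and 52.0 ± 3.96 CPM). Monocytes had 344.1 ± 137.9 and 418.3 ± 137.5 CPM, and DCs (dendritic cells) 475.7 ± 145.8 and 703.5 ± 163.7 CPM. In cells labelled M-MDSCs the means were 486.3 ± 186.4 and 902.0 ± 330.7 CPM. Inflammatory myeloid cells went the other way, with 864.3, 276.5 and 1239.7 CPM in control mice against 655.8, 596.6 and 346.3 CPM in stress mice. HSCs, with 37 cells in control mice and 91 in stress mice, had 459.0 ± 299.6 and 401.2 ± 99.0 CPM. Without H4c4, the member with the most UMIs, the ratio was 1.79 in tumor cells, 2.90 in NK/T cells and 2.39 in B cells. Sums over members are descriptions and were not tested.

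**Figure D1:**
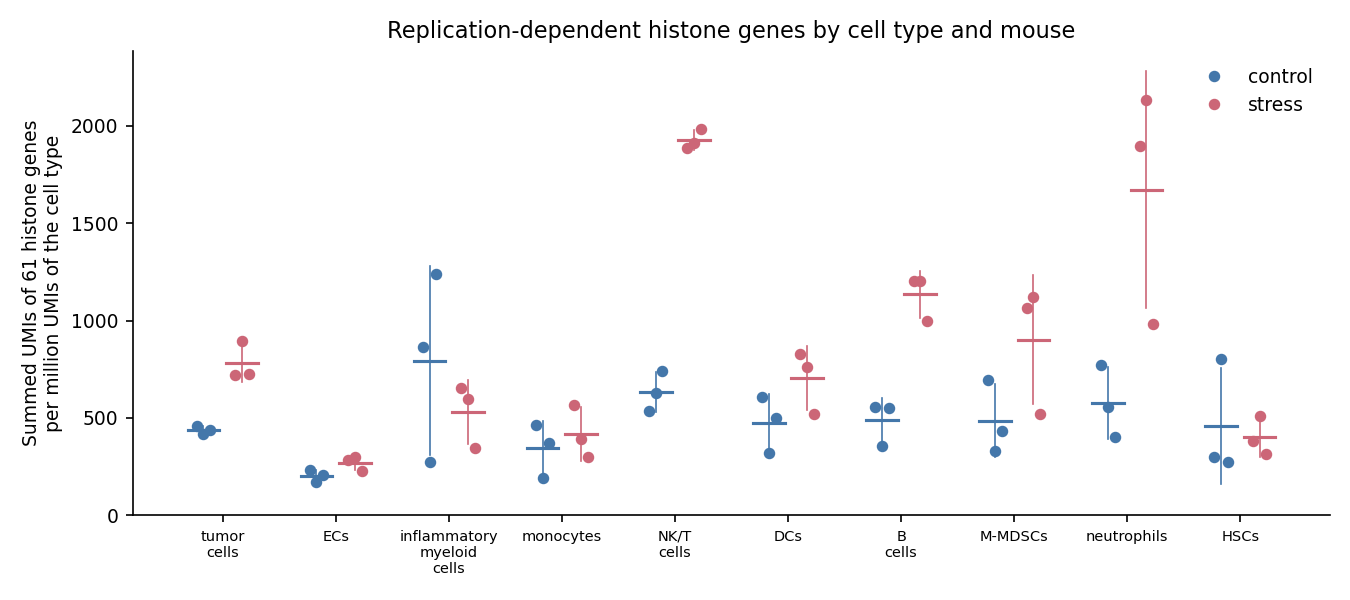
Summed UMIs of the 61 histone genes in CPM (y axis) in each cell type (x axis), with 1 point per mouse, a horizontal bar for the mean and a vertical line for the SD over 3 mice. Stress mice lie above all control mice in tumor cells, NK/T cells, B cells and neutrophils, and below the control mean in inflammatory myeloid cells.

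Shares of cells with at least 1 histone UMI are given with the depth of the cells, which also differed between the groups. Such cells made up 93.6% of tumor cells in control mice and 96.2% in stress mice, at median depths of 25654 and 31557 UMIs per cell. After thinning each cell to 1000 UMIs, the shares were 27.8% and 37.8%, with 27.8%, 27.6% and 28.0% in control mice 1 to 3 and 35.4%, 42.8% and 35.1% in stress mice 1 to 3. ECs, the cell type with the lowest share, had 37.0% and 43.6% as deposited (median depths 4221.5 and 5015) and 11.7% and 14.3% after thinning. NK/T cells went from 62.0% to 89.2% as deposited (median depths 3285 and 5098) and from 32.6% to 55.5% after thinning. B cells went from 27.9% to 52.6% after thinning. Thinning left out 131 and 193 tumor cells, 205 and 405 ECs, 6 and 16 NK/T cells, and 5 and 2 B cells of control and stress mice. No cell type here lacks histone genes, so the share that free RNA alone gives was not measured.

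The members that carried the sum differed by cell type. In tumor cells, H4c4 and H1f5 together made up 28.6% ± 2.04 of the histone UMIs (SD over 6 mice) and H1f2, H2bc4 and H4c9 together 8.26% ± 0.801. In inflammatory myeloid cells the order was turned, with 6.55% ± 5.06 and 64.1% ± 10.3, and in HSCs it was 12.2% ± 10.3 and 59.1% ± 20.7. Monocytes lay between, with 15% ± 3.98 and 42.3% ± 10.5. NK/T cells had means nearer those of tumor cells, 27.7% ± 5.49 and 13.0% ± 3.84, but differed by group. Their share of H4c4 and H1f5 was 19.5%, 26.7% and 24.4% without stress, against 29.3%, 34.9% and 31.7% with it. For H1f2, H2bc4 and H4c9 it was 18.7%, 15.2% and 13.9% against 12.2%, 8.45% and 9.22%. Monocytes were also apart by group for H4c4 and H1f5 (10.7%, 14.6% and 10.6% against 18.4%, 20.5% and 15.1%). They overlapped for H1f2, H2bc4 and H4c9. Members whose annotated 3′ UTR is at least 300 bases long, 20 of 61, held 43.8% ± 2.12 of the histone UMIs in tumor cells, 72.9% ± 6.46 in monocytes and 84.6% ± 6.14 in inflammatory myeloid cells. H1f2, H2bc4 and H4c9 belong to these long members, and the 3 were grouped after their values were seen. The high sum of inflammatory myeloid cells in control mice 1 and 3 lay in the same genes, with H1f2 at 307.5, 84.8 and 565.1 CPM in control mice against 166.0, 129.2 and 74.2 CPM in stress mice.

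In tumor cells, 34 of the 59 members tested were higher in stress mice and 0 were lower (edgeR's quasi-likelihood test on UMIs summed per mouse, Benjamini-Hochberg adjusted p under 0.05 over 18856 genes). Over all tested genes, 12.0% were higher and 9.46% lower. At an unadjusted p under 0.05, 40 members were higher and 2 lower, against 19.2% and 18.2% of all tested genes. DESeq2 called 35 members higher and 1 lower, against 13.1% and 13.3% of all tested genes. The median log2 fold change, stress over control, was 0.60 over the members and -0.01 over all tested genes. Relative to the mean of the control mice, the median member stood at 0.09, -0.14 and 0.07 in control mice 1 to 3 and at 0.66, 0.68 and 0.53 in stress mice 1 to 3 on the log2 scale. H2bc27 and H4c17 had too few UMIs and were not tested. With library size alone as the scale, the median of all genes moved to 0.13 and the calls over all genes from 2258 higher and 1783 lower to 2710 and 605, while 37 members were higher, against 14.4% of all genes, and 0 lower. CPM values given here are on that unscaled footing, so folds read from them are somewhat larger than the fitted ones in tumor cells. In NK/T cells, DCs and B cells they are somewhat smaller, since the members' median log2 fold change went from 1.45 to 1.37, from 0.58 to 0.46 and from 1.28 to 1.20 with library size alone. In tumor cells changes are best read against the median of all genes. P-values measure the spread between 3 mice per group, and an exact permutation test with 3 against 3 cannot go below 0.10. Leaving out a mouse gave between 14 calls (without control replicate 3, where 3.79% of all tested genes were called higher) and 32 (without control replicate 2, where 15.3% were). The members' median log2 fold change was 0.65 and 0.58 in these fits, against 0.60 with all mice.

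The number of members that passed is given here by family, where 12.0% of all tested genes were higher. All 5 H1 genes were higher, with a median log2 fold change of 1.06, though H1f1 entered the test through the stress mice. Also higher were 11 of 16 H2A genes (0.79), 9 of 15 tested H2B genes (0.58) and 8 of 12 tested H4 genes (0.71). Of the 11 H3 genes, 1 was higher (0.30), a share near that of all tested genes. No test compared the families with each other. Summed over a family, all 5 families were higher in every stress mouse than in every control mouse. The means were 107.5 ± 7.18 and 231.9 ± 58.6 CPM for H1, 103.0 ± 3.94 and 194.3 ± 17.1 CPM for H2A, and 50.2 ± 5.52 and 85.8 ± 6.09 CPM for H2B. They were 72.5 ± 12.8 and 96.3 ± 8.15 CPM for H3, and 104.7 ± 10.9 and 172.4 ± 15.2 CPM for H4.

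**Figure D2:**
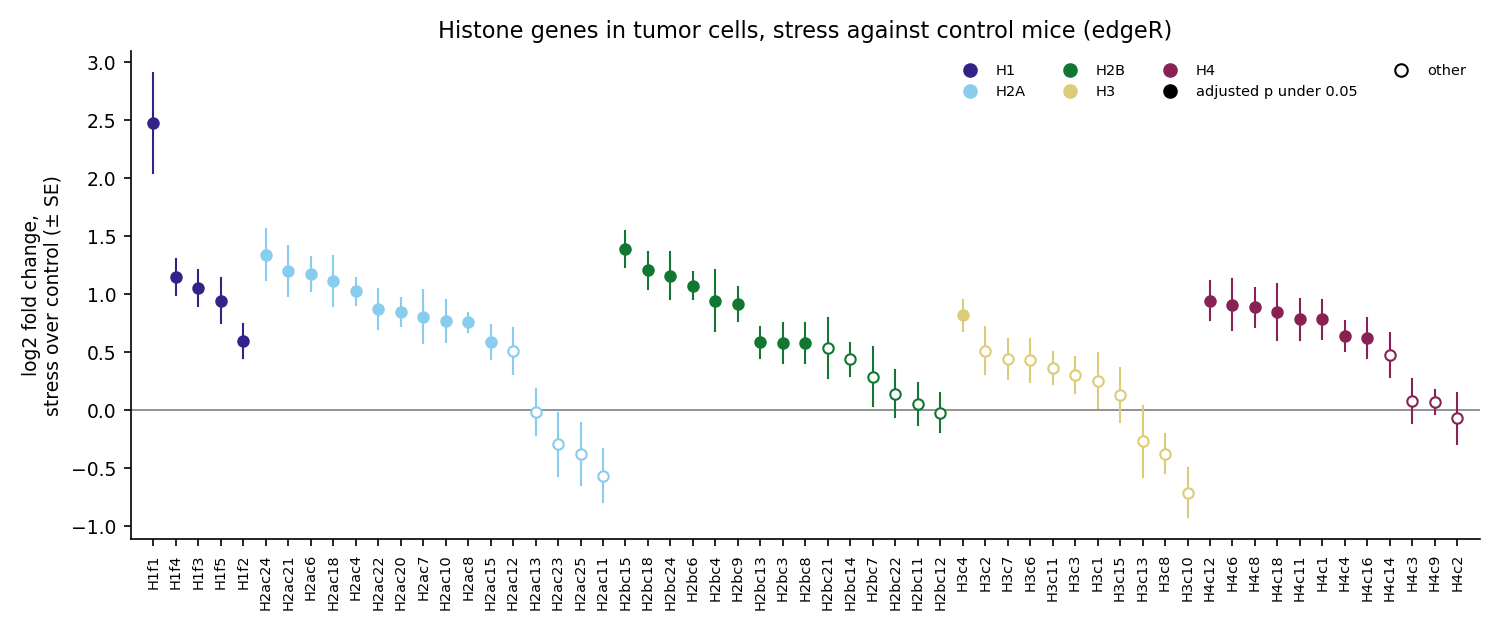
Log2 fold change of each of 59 tested histone genes in tumor cells, stress over control (y axis, edgeR, bars are ± SE), with the genes grouped by family along the x axis. Filled points, 34 of them, have an adjusted p under 0.05, and all of these lie above 0.

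The H1 genes encode linker histones that compact chromatin. H1f5 stood at 49.5, 65.1 and 48.6 CPM in control mice 1 to 3 and at 87.4, 156.6 and 104.9 CPM in stress mice 1 to 3 (log2 fold change 0.95 ± 0.19 SE, edgeR adjusted p = 0.016). For H1f4 the levels were 28.3, 26.5 and 26.7 CPM in controls and 61.4, 85.7 and 53.0 CPM under stress (1.15 ± 0.16, adjusted p = 0.00565). Stress mouse 2 was the highest for both genes, and no stress mouse came down to a control. H1f2 went from 20, 14.3 and 18.6 CPM to 28.7, 32.6 and 27.3 CPM (0.60 ± 0.15, adjusted p = 0.0283). H1f3 went from 8.11, 9.29 and 7.24 CPM to 15.7, 23.8 and 17.2 CPM (1.05 ± 0.15, adjusted p = 0.00631). Both pairs of groups were separate. H1f1 had the largest fold of the family at a very low level, with 0.0351, 0.105 and 0.0554 CPM in controls and 0.347, 0.550 and 0.309 CPM in stress mice (2.48 ± 0.43, adjusted p = 0.010). It was near 0 in controls, of which 1 reached the cutoff of the filter on low counts. It thus entered the test through the stress mice, so its fold is uncertain and its call is no support for a change.

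H2A pairs with H2B in the dimers of the nucleosome core. H2ac8, the H2A gene with the most UMIs, stood at 31.9, 37.5 and 34.5 CPM in control mice and at 58.2, 67.7 and 68.4 CPM in stress mice (0.76 ± 0.08, adjusted p = 0.00392, edgeR). H2ac24 had 21.2, 22.4 and 12.5 CPM against 40.4, 63.0 and 54.2 CPM (1.34 ± 0.22, adjusted p = 0.00868). Of its windows 92.2% were found in other genes, whereas for H2ac8 the share was 30.7%. H2ac20 rose from 5.53, 6.98 and 5.87 CPM to 11.9, 13.3 and 11.3 CPM (0.85 ± 0.12), and H2ac4 from 5.33, 6.13 and 6.41 CPM to 12.0, 14.9 and 13.4 CPM (1.03 ± 0.12). H2ac10 rose from 5.58, 4.83 and 6.0 CPM to 11.5, 8.31 and 11.0 CPM (0.77 ± 0.18), and H2ac22 from 3.09, 4.04 and 2.55 CPM to 6.55, 6.66 and 6.31 CPM (0.88 ± 0.17). In all of these genes the lowest stress mouse lay above the highest control mouse. H2ac6 went from 3.06, 2.60 and 2.28 CPM to 6.12, 6.62 and 7.09 CPM (1.18 ± 0.15), and H2ac15 from 2.23, 2.25 and 2.17 CPM to 3.90, 3.79 and 3.34 CPM (0.59 ± 0.15).

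Some of the rarer H2A genes were also called higher, at lower levels, while H2ac12 and H2ac23 were not called. H2ac18 went from 1.73, 1.52 and 1.42 CPM to 2.53, 4.32 and 4.42 CPM (1.11 ± 0.22). H2ac7 went from 0.539, 0.389 and 0.462 CPM to 0.882, 1.05 and 0.762 CPM (0.81 ± 0.23, edgeR adjusted p = 0.0445), and H2ac21 from 0.217, 0.217 and 0.215 CPM to 0.556, 0.575 and 0.521 CPM (1.20 ± 0.22). The other 5 H2A genes were not called, and they included the abundant H2ac11 with 12.9, 9.31 and 13.5 CPM in controls and 10.9, 8.87 and 6.80 CPM in stress mice (-0.56 ± 0.23, edgeR adjusted p = 0.119). Its groups overlapped, as did those of H2ac13, H2ac23 and H2ac25.

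Among H2B genes, H2bc4 had 9.5, 4.37 and 7.13 CPM in control mice against 15.6, 14.3 and 15 CPM in stress mice (0.95 ± 0.26, edgeR adjusted p = 0.0401). H2bc12, second by UMIs, had 8.97, 7.92 and 10.1 CPM against 10.5, 10.9 and 7.92 CPM (-0.02 ± 0.17, adjusted p = 0.941). The groups were separate for H2bc4 and overlapped for H2bc12, whose fold was 0.12 with library size alone. H2bc15 rose from 1.96, 2.27 and 1.87 CPM to 4.70, 6.83 and 6.21 CPM (1.39 ± 0.16), the largest fold among H2B genes. H2bc18 rose from 2.82, 3.14 and 2.94 CPM to 7.60, 8.87 and 6.18 CPM (1.21 ± 0.16), and H2bc6 from 4.65, 4.49 and 4.12 CPM to 8.82, 10.9 and 11.2 CPM (1.08 ± 0.12). Each of these more than doubled in the mean of the CPM values. H2bc9 went from 1.24, 1.37 and 1.30 CPM to 2.49, 3.06 and 2.60 CPM (0.92 ± 0.15), and H2bc24 from 0.849, 0.632 and 0.591 CPM to 1.52, 1.81 and 1.81 CPM (1.16 ± 0.20). Smaller folds were found for H2bc13, from 2.60, 2.45 and 2.66 CPM to 4.22, 4.39 and 4.17 CPM (0.59 ± 0.13), and for H2bc8, from 5.26, 3.85 and 5.23 CPM to 7.99, 8.72 and 7.05 CPM (0.58 ± 0.17). H2bc3 had the adjusted p closest to the threshold among the called members, 0.0484 in edgeR, with 3.36, 2.40 and 3.24 CPM in controls and 4.73, 5.48 and 4.75 CPM in stress mice (0.58 ± 0.17).

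H3 and H4 form the central tetramer of the nucleosome. H3c3 had 24.2, 17.1 and 23.8 CPM in control mice against 29.0, 31.9 and 28.1 CPM in stress mice (0.31 ± 0.15, edgeR adjusted p = 0.188), and H3c6 had 22.8, 14.9 and 22.6 CPM against 31.5, 31.5 and 26.8 CPM (0.43 ± 0.19, adjusted p = 0.137). Their groups did not overlap, but neither gene passed the test. H3c4, the H3 gene that passed, rose from 2.09, 2.32 and 1.88 CPM to 3.83, 4.23 and 4.17 CPM (0.82 ± 0.14, adjusted p = 0.00889). H3c10 was the lowest in fold, with 9.43, 6.53 and 10.1 CPM in controls and 6.23, 6.61 and 4.74 CPM in stress mice (-0.71 ± 0.21, adjusted p = 0.0503). Of the windows of H3c10, 92.0% were found in other genes. It was called lower by DESeq2, with no filter on low counts and with the replicate block.

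H4c4, the member with the most UMIs, had 73.0, 58.8 and 68.5 CPM in control mice against 116.8, 129.2 and 99.2 CPM in stress mice (0.64 ± 0.13, edgeR adjusted p = 0.017). H4c9, second among H4 genes, had 14.6, 14.1 and 12.5 CPM against 14.8, 18.2 and 15.1 CPM (0.07 ± 0.10, adjusted p = 0.649). The gap between the groups was wide for H4c4 and narrow for H4c9. H4c8 rose from 6.63, 4.86 and 6.44 CPM to 10.8, 11.6 and 14.4 CPM (0.89 ± 0.17), and H4c16 from 5.77, 4.08 and 4.31 CPM to 8.52, 8.15 and 7.42 CPM (0.63 ± 0.17). H4c18 rose from 2.85, 1.82 and 2.43 CPM to 4.0, 4.06 and 6.15 CPM (0.85 ± 0.24), and H4c1 from 1.88, 1.63 and 1.77 CPM to 2.71, 3.47 and 3.92 CPM (0.79 ± 0.17). None of these had a stress mouse within the range of the controls. H4c12 rose from 1.12, 1.08 and 1.17 CPM to 1.96, 2.63 and 2.63 CPM (0.95 ± 0.17), H4c11 from 0.967, 0.949 and 0.868 CPM to 1.74, 2.01 and 1.54 CPM (0.79 ± 0.18), and H4c6 from 0.228, 0.290 and 0.265 CPM to 0.484, 0.567 and 0.579 CPM (0.91 ± 0.22).

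**Figure D3:**
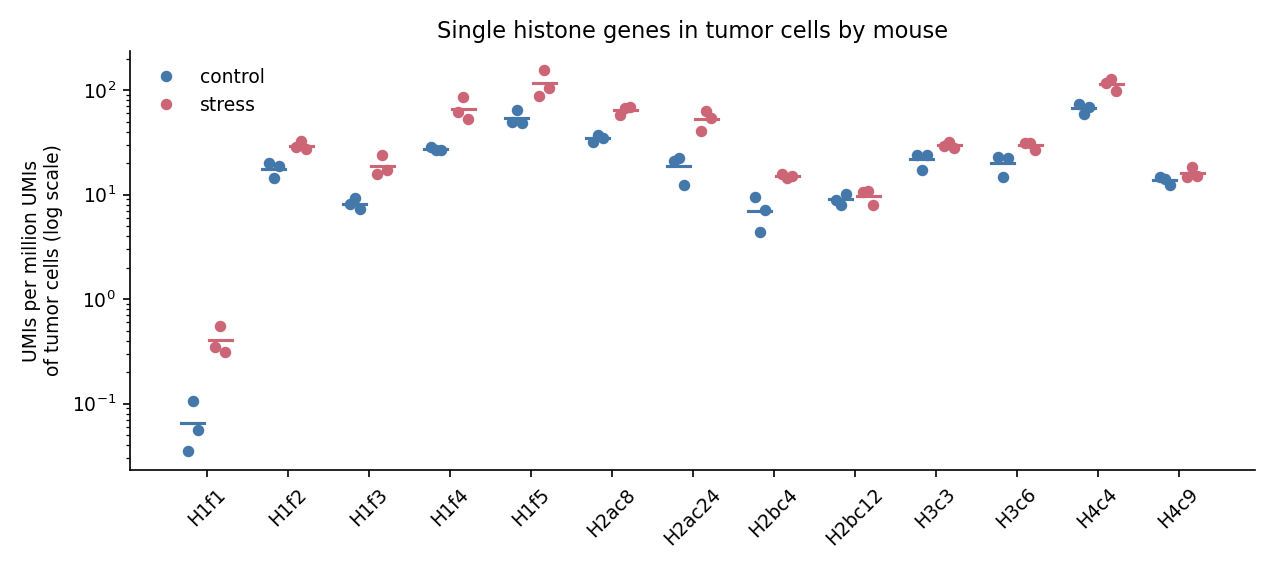
Level in CPM (y axis, log scale) in tumor cells of each mouse for the H1 genes and the leading genes of the other families (x axis), with bars at the means of 3 mice. The points of stress mice lie above those of control mice for H1f1 to H1f5, H2ac8, H2ac24, H2bc4, H3c3, H3c6, H4c4 and H4c9, with a narrow gap for H4c9, and overlap them for H2bc12.

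Over the 59 tested members, 44 had their 3 stress values above their 3 control values in CPM and 0 had them below, where 28.2% of all tested genes had them above. Over all tested genes, 12.0% were called higher. Grouped by shared sequence, 11 of 14 tested members with under 10% of their windows in other genes were called higher (median log2 fold change 0.88). Among members with 10 to 50% the count was 12 of 24 (0.51), and among those with 50% or more it was 11 of 21 (0.59). The members with the least shared sequence had the highest median, but they included H1f1, H1f2, H1f3 and H1f5 and no H3 gene. H1f1 entered the test through the stress mice, and the part of family in this order was not tested.

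Tumor cells fall into 10 clusters in the annotation, and the summed histone level differed widely among them. Cluster 4 had the highest sums in control mice, with 927.0, 749.4 and 817.1 CPM, and it reached 1773.2, 1707.8 and 2039.4 CPM in stress mice, a ratio of 2.21. Cluster 1 had 713.2, 554.9 and 639.5 CPM against 1160.1, 1065.7 and 1133.3 CPM, a ratio of 1.76. Clusters 14, 17 and 9 followed by control means, with 555.3, 492.4 and 486.0 CPM, and had stress means of 1159.6, 1690.7 and 692.9 CPM. In clusters 3, 5, 6 and 7 the control means lay between 162.5 and 193.6 CPM and the stress means between 273.2 and 381.0 CPM. The stress mice were all above the control mice in 9 of the 10 clusters. The exception was cluster 21, with 220.3 ± 69.1 CPM in control mice against 225.0 ± 27.2 CPM in stress mice. Cluster 17 had the largest ratio, 3.43, but its cells were shallow, with median depths of 1751 to 2877 UMIs in control mice and 1369 to 1865 UMIs in stress mice. Clusters were made from all genes, histone genes included, so these levels are descriptions.

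Phases were called from lists of S phase and G2M genes that hold no member, after thinning each tumor cell to 5000 UMIs. Of the tumor cells, 28564 were called and 1074 were shallower and left out. The lists do hold Slbp and Casp8ap2, genes of histone mRNA supply, Cenpa, the gene of a centromeric H3 variant, and histone chaperone genes such as Hjurp and Nasp. Cells called S or G2M made up 41.3%, 65.0% and 48.1% of the tumor cells in control mice against 39.4%, 60.3% and 38.6% in stress mice. This joint share was highest in mouse 2 of each group, and the groups overlapped. Cells called G2M alone made up at least 23.9% of the tumor cells in every control mouse and at most 23.2% in every stress mouse. Of 51 tested genes of the G2M list, 34 were also lower in stress tumor cells by edgeR, where 9.46% of all tested genes were. Cells given the same call by the scores may thus differ between the groups, and the part of this in the ratios below was not tested. Within each phase called by these scores the histone sums were higher in every stress mouse than in every control mouse. In cells called G1 they were 165.9 ± 27.7 and 280.7 ± 30.8 CPM (ratio 1.69), in S 601.4 ± 110.9 and 1142.5 ± 35.7 CPM (1.90), and in G2M 668.0 ± 87.5 and 1425.3 ± 99.3 CPM (2.13). This did not hold for S phase when cells were instead split by the 33.3% of cells of each mouse highest on each score. Cells among the highest for S alone then had 347.2, 474.8 and 446.1 CPM against 416.1, 938.5 and 357.9 CPM under stress (ratio 1.35), and stress mice 1 and 3 lay within the range of the controls. The groups were apart in cells among the highest for G2M alone (ratio 1.68), for both scores (2.0) and for neither (1.63). In cells called S phase by the scores, 25 of 57 tested members were higher in stress mice by edgeR, where 8.17% of all tested genes were, and the median log2 fold change of the members was 0.76. Clusters 4 and 1 were made up almost wholly of cells called G2M (57.1% and 48.0%) or S (40.8% and 49.0%), while 90.1% of the cells of cluster 5 were called G1. Phase calls rest on gene scores, and no direct measure of the cell cycle was used here.

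**Figure D4:**
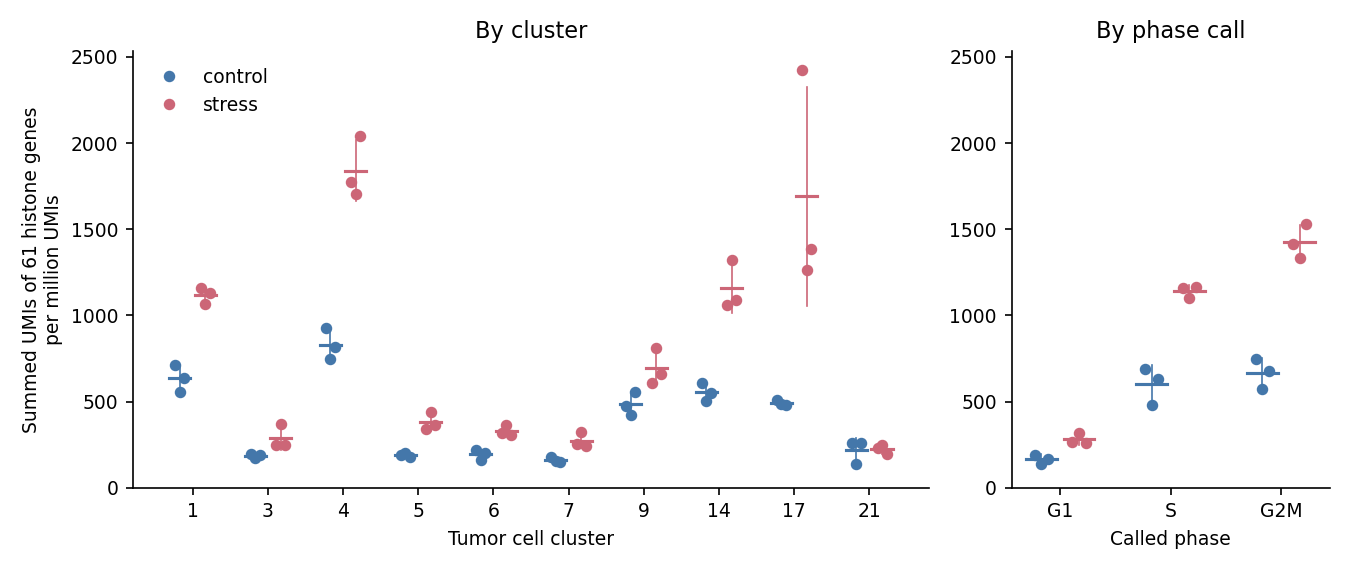
Summed UMIs of the 61 histone genes in CPM (y axis) in tumor cell clusters (left, x axis: cluster number) and in tumor cells by called phase (right), with 1 point per mouse, bars at the means and lines for the SD over 3 mice. Stress mice lie above control mice in every cluster except 21 and in each phase called by the scores, and clusters 1, 4, 14 and 17 and cells called S or G2M are the highest.

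Single members differed in how strongly they followed the phase. The summed level in S over that in G1, by the scores, was 3.62, 3.51 and 3.73 in control mice 1 to 3 and 4.40, 3.48 and 4.45 in stress mice 1 to 3, with the groups overlapping. Its mean over the 6 mice was 3.86, and it was 2.05 when cells among the highest 33.3% on the S score alone were set over those highest on neither score. The ratios of single members given here rest on the score calls alone. Between 54 and 58 of the 61 members were higher in S than in G1 in any one mouse, and between 7 and 21 were higher in S than in G2M. From the means over 6 mice, the S over G1 ratio was highest for H2ac10 (49.8), H3c2 (18.8), H1f5 (17.7), H1f1 (13.6) and H2bc15 (11.9). The ratio of H1f1 is uncertain, since the gene was near 0 in G1 cells, at 0.0 to 0.085 CPM. H1f5 stood at 3.8, 4.73 and 3.17 CPM in G1 cells of control mice and at 112.8, 95.7 and 99.0 CPM in their S cells. In stress mice it stood at 11.2, 17.4 and 14.1 CPM in G1 and at 187.7, 238.7 and 226.1 CPM in S. At the other end were H2ac25 (0.344), H2bc4 (0.646), H4c17 (0.654), H2bc21 (0.671), H4c16 (1.0) and H1f2 (1.26). The ratio of H4c17 is uncertain too, with 0.0 to 0.0409 CPM in G1 and 0.0 to 0.0293 CPM in S. H2bc4 stood at 11.3, 4.75 and 8.51 CPM in G1 and 5.97, 3.65 and 6.10 CPM in S cells of control mice, and at 16.3, 17.5 and 16 CPM and 12.3, 8.91 and 11.1 CPM in stress mice. So H2bc4, unlike H1f5, was lower in S than in G1 in all 6 mice.

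The phase ratio went with the annotated end of the transcript. Members whose annotated transcript ends at the stop codon or at most 2 bases after it, 13 of them, had a median S over G1 ratio of 5.67. The 28 with a short annotated 3′ UTR had 3.92. An annotation that stops there does not show where the mRNA ends, which was not measured. The 20 members with a 3′ UTR of at least 300 bases had 1.85, with a highest value of 4.68. The members with ratios at or below 1.32 were H4c17, which has a 3′ UTR of 52 bases, and 7 others. Of H2ac25, H2bc4, H2bc21, H4c16, H1f2, H2ac6 and H3c15, all 7 have long 3′ UTRs of 423 to 2515 bases, among them H4c16 with 2515, H2bc21 with 2192, H2ac6 with 2058 and H2ac25 with 1700. The classes were set after the data were seen, and the relation is a description. For annotated ends at the stop codon, short and long ends, 9 of 13, 13 of 26 and 12 of 20 tested members were called higher in tumor cells. Over all tested genes, 12.0% were called higher. The median log2 fold changes of these classes were 0.77, 0.55 and 0.63, and no test compared them.

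**Figure D5:**
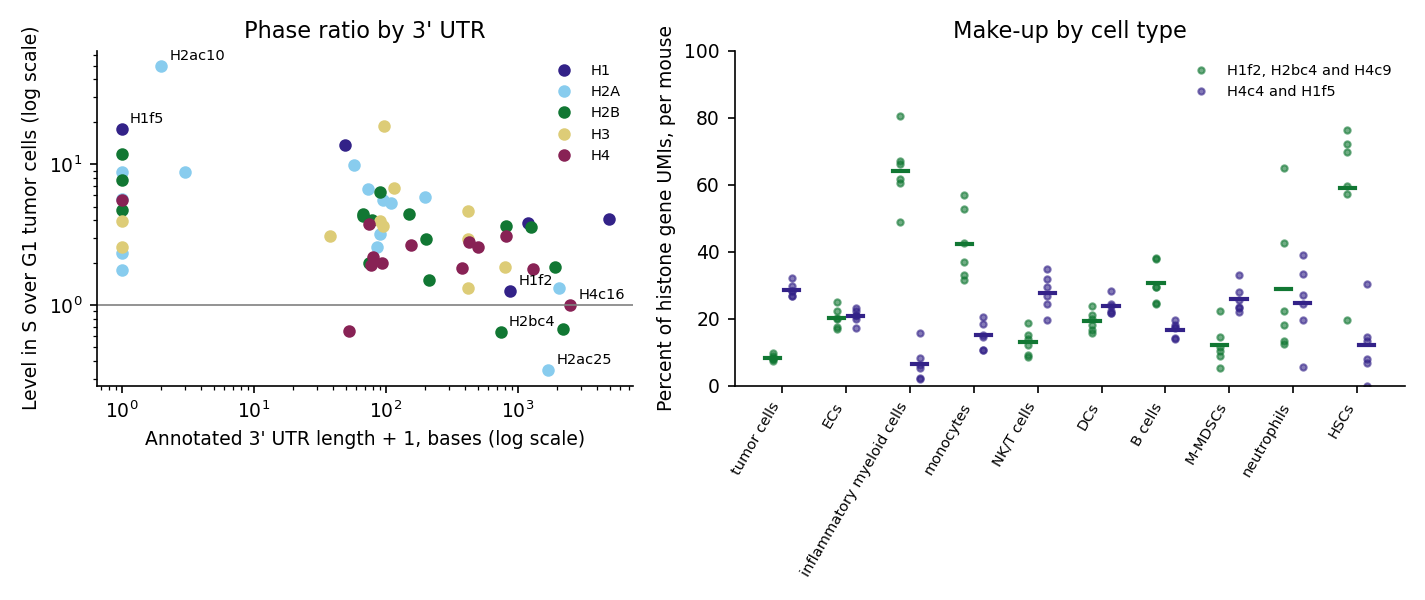
Left: ratio of the mean level in cells called S to that in cells called G1 (y axis, log scale) against annotated 3′ UTR length plus 1 in bases (x axis, log scale), 1 point per histone gene colored by family, with a line at 1, and right: percent of histone UMIs (y axis) held by H1f2, H2bc4 and H4c9 and by H4c4 and H1f5 in each cell type (x axis), 1 point per mouse and bars at the means. Long 3′ UTRs go with ratios of at most 4.68, and the first 3 genes hold 64.1% of the histone UMIs in inflammatory myeloid cells and 8.26% in tumor cells.

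In NK/T cells, 17 of 46 tested members were higher in stress mice and 0 lower (edgeR, adjusted p under 0.05), where 0.536% of 11196 tested genes were higher and 0.322% lower. Of the tested members, 45 had a positive log2 fold change, and the median was 1.45. Only 30 of the 46 had every control mouse at the low-count filter's cutoff of 3.3 CPM, and 3 had none there. The others entered the test wholly or partly through the stress mice, so this count and median are no support for a change. The called members were 4 H1, 5 H2A, 3 H2B, 3 H3 and 2 H4 genes. H1f4 stood at 28.6, 48.8 and 49.8 CPM in control mice and at 256.9, 216.8 and 187.0 CPM in stress mice (2.38 ± 0.21 SE, edgeR adjusted p = 0.0001). H1f5 had 73.6, 115.6 and 106.5 CPM against 313.3, 420.1 and 400.7 CPM (1.97 ± 0.18, adjusted p = 0.0001), and H4c4 had 30.6, 52.5 and 74.1 CPM against 240.5, 246.9 and 227.3 CPM (2.22 ± 0.22, adjusted p = 0.0003). All 3 genes were several times as high in stress mice. H1f1 was at 0.0, 2.19 and 2.32 CPM in controls (0, 9 and 2 UMIs) and at 19.5, 17.1 and 22.3 CPM in stress mice (38, 120 and 92 UMIs). Its controls all lay under the filter's cutoff of 3.3 CPM, so it entered the test only through the stress mice, and its place among the 17 calls is no support for a change. Some controls lay under the cutoff for H2ac4 and H2bc18 too, while the other 14 called members had all controls above it. H4c8 stood at 4.09, 6.32 and 8.11 CPM against 33.3, 27.0 and 33.4 CPM (2.36 ± 0.29). The other called members were H1f3, H2ac4, H2ac8, H2ac10, H2ac20, H2ac24, H2bc3, H2bc15, H2bc18, H3c3, H3c6 and H3c7, with log2 fold changes of 1.43 to 2.45.

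Control mice had few NK/T cells, 93, 674 and 126, against 269, 814 and 514 in stress mice. More of them were called G1 in control mice (66.3%, 62.6% and 64.3%) than in stress mice (57.3%, 47.3% and 52.7%). In the 1363 NK/T cells called G1, 3 of 14 tested members were higher by edgeR, where 0.453% of 9041 tested genes were. All 14 had a positive fold change, with a median log2 fold change of 1.33, while the median was 1.45 over the 46 members tested in all NK/T cells. The 2 medians rest on different sets of members. Which mice carried the 14 through the filter was not checked, so their signs and median are no support for a change. DESeq2 called 9 of the 46 members in all NK/T cells, where it called 0.884% of all tested genes higher, and without control replicate 2, the control with most of the cells, edgeR called 9 of 45, with a median of 1.25 and 0.41% of all tested genes called. Of the marker lists of the 9 other cell types, the DC list (Flt3, H2-Aa and Ccr7) was higher in every stress mouse, with 38.8, 42.0 and 32.4 CPM in control mice and 134.3, 109.8 and 176.4 CPM under stress. The list of inflammatory myeloid cells (Acod1, Il1b and Cxcl2) overlapped, with 14.3, 189.7 and 194.6 CPM against 111.3, 144.2 and 992.8 CPM. The part of cell number and of these markers in the histone values was not tested.

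In B cells, 3 of 10 tested members were higher, all of them H1 genes, where 0.311% of 5796 tested genes were higher and 0.173% lower. H1f3 stood at 4.75, 5.56 and 8.78 CPM in control mice (1, 3 and 4 UMIs) and at 56.3, 40.5 and 53.0 CPM in stress mice (24, 31 and 66 UMIs). Its controls all lay under the filter's cutoff of 20.1 CPM, so it entered the test only through the stress mice, and its call is no support for a change. H1f2 had 66.4, 50.1 and 87.8 CPM against 232.2, 199.9 and 184.0 CPM (1.65 ± 0.30, adjusted p = 0.049), and H1f4 had 28.5, 29.7 and 54.9 CPM against 175.9, 126.8 and 110.9 CPM (1.88 ± 0.35, adjusted p = 0.049). The groups were far apart for these genes, and the controls of H1f2 and H1f4 lay above the cutoff, yet control mouse 1 had 20 B cells, and every fit that left out a mouse called at most 1 member, where 0.0894% to 0.258% of all tested genes were called. The median log2 fold change of the members tested was 1.03 to 1.45 in those 6 fits, against 1.28 with all mice. With all mice, only 5 of the 10 members had every control mouse at the cutoff. The others entered wholly or partly through the stress mice, so these medians are no support for a change. In DCs, 3 of 26 tested members were higher, where 2.13% of 10533 tested genes were higher and 0.513% lower. They were H2bc4 (1.51 ± 0.28, edgeR adjusted p = 0.0155), H2ac24 (1.48 ± 0.32, adjusted p = 0.0327) and H1f4 (1.18 ± 0.28, adjusted p = 0.047). H2bc4 went from 23.0, 13.2 and 16.5 CPM to 26.9, 42.6 and 53.0 CPM in DCs, with separate groups. The marker lists of inflammatory myeloid cells (895.6 to 1468.3 CPM against 1902.6 to 3026.7 CPM) and of NK/T cells (0.0 to 24.7 CPM against 37.2 to 82.3 CPM) were also higher in DCs of every stress mouse, and their part was not tested. In DCs, 1 member was called with library size alone, where 1.19% of all tested genes were, and 1 of 6 tested members in cluster 20, where 0.157% were. All 6 were positive in cluster 20, with a median log2 fold change of 1.86. The median was 0.58 over the other set of 26 members tested in all DCs, of which 16 had every control mouse at the filter's cutoff. Which mice carried the 6 through the filter was not checked, so their signs and median are no support for a change. No member was called without control replicate 2 (0 of 19, median 0.33, with 2.53% of all tested genes called) or without control replicate 3 (0 of 37, median 0.78, with 1.03% called).

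In the other tested cell types, edgeR called 0 members. In ECs 41 members were tested and 0.213% of 14090 genes were called in either direction. There, 9 members were higher and 2 lower at an unadjusted p under 0.05, against 7.22% and 8.43% of all tested genes, and DESeq2 called 3 higher, against 1.45%. In monocytes 31 members were tested and 0.122% of 12251 genes were called. Of these members 5 were higher at an unadjusted p under 0.05, against 6.02% of all tested genes. DESeq2 called 1 higher, against 0.873%, and the fit with mouse number as a block called 2, against 0.947%. In cells labelled M-MDSCs 25 members were tested and 0.561% of 9443 genes were called. Here 12 members were higher at an unadjusted p under 0.05, against 4.78% of all tested genes. Of the 25, only 11 had every control mouse at or above the filter's cutoff of 6.65 CPM, and 3 had no control mouse there and entered the test only through the stress mice, so the count and the median fold change are no support for a change. DESeq2 called 1, against 0.466%, and a fit with no filter on low counts called 9 of 60, against 1.1%. In inflammatory myeloid cells 13 members were tested and 0.0% of 9219 genes were called, with 0 members higher and 1 lower at an unadjusted p under 0.05, where 1.72% of all tested genes were lower, and 0 called by DESeq2. The median log2 fold change of the tested members was 0.39 in ECs, 0.58 in monocytes, 1.10 in cells labelled M-MDSCs and 0.01 in inflammatory myeloid cells. Every control mouse reached the filter's cutoff for 31 of 41 members in ECs and for 16 of 31 in monocytes. The medians there thus draw partly on members that entered through the stress mice.

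Whether the change in tumor cells differed from that in other cells was tested with limma on the difference of log2 CPM within each mouse. Against ECs, 0 of 41 members passed, where 0.044% of 13647 genes did, while 16 had a larger change in tumor cells at an unadjusted p under 0.05, against 7.61% of all genes, and the median difference was 0.44. Against monocytes, 0 of 30 members passed, where 0.0% of 11964 genes did, with 2 at an unadjusted p under 0.05, against 5.06% of all genes, and a median difference of 0.16. The change in tumor cells was therefore not shown to differ from that in ECs or monocytes.

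Of 19 tested genes of histone mRNA transcription and processing, 0 were higher and 2 lower in tumor cells by edgeR, a share of lower calls near that of all tested genes (9.46%), and the median log2 fold change was -0.15. Slbp, the stem-loop binding protein, stood at 126, 160 and 137 CPM in control mice and at 135, 150 and 134 CPM in stress mice (-0.15 ± 0.10, edgeR adjusted p = 0.291). Npat had 33.0, 34.6 and 33.5 CPM against 40.2, 41.4 and 41.5 CPM (0.14 ± 0.07, adjusted p = 0.194) and passed with library size alone. Casp8ap2, a partner of NPAT, gave 0.12 ± 0.14 (adjusted p = 0.587). The U7 snRNP subunit Lsm10 fell by 0.57 on the log2 scale (43.9, 46.5 and 39.4 CPM to 30.7, 36.3 and 29.6 CPM, adjusted p = 0.00931), and Snrpe, a common Sm protein, fell by 0.37 (adjusted p = 0.0268) and did not pass with library size alone.

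Histone chaperones, which escort new histones to DNA, gave 0 higher and 4 lower of 22 tested by edgeR, where 12.0% of all tested genes were higher and 9.46% lower. They were Hjurp (-0.76), the chaperone of the centromeric H3 variant CENP-A, Daxx (-0.47), Nap1l4 (-0.35) and Anp32e (-0.39), and the last 3 did not pass with library size alone. Of 10 tested genes listed as replication-independent histones, most of which have poly(A) tails and are also made outside S phase, 1 was higher and 4 were lower, against the same shares of all tested genes. H2ax, whose mRNA can also end in a stem-loop in S phase, fell by 0.91 (106, 123 and 97.6 CPM to 68.1, 66.4 and 56.5 CPM, edgeR adjusted p = 0.00508), and Cenpa, which is transcribed mainly in G2, fell by 0.77 (adjusted p = 0.0254) and did not pass with library size alone. H2az2 (-0.37), which did not pass with library size alone, and Macroh2a1 (-0.33) were also lower, and Macroh2a2 was higher (1.14) at a level of at most 1.03 CPM. H3f3a had a log2 fold change of 0.14, H3f3b of -0.02, H2az1 of -0.03 and H1f0 of -0.33, and these did not pass, though H3f3a did with library size alone. With library size alone H3f3b and H2az1 stood at 0.12 and 0.11.

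The S phase list gave 1 higher (Prim1, a DNA primase subunit, 0.44) and 0 lower of 42 tested in tumor cells, with a median of -0.20. The G2M list gave 0 higher and 34 lower of 51 tested, with a median of -0.56. Its largest falls were in Gas2l3 (-1.12), Kif2c (-1.11), Aurka (-1.09) and Cdca3 (-0.87), all of which work in mitosis. The summed level of the S phase list was 1786.8, 2377.5 and 1948.1 CPM in control mice against 1753.2, 2564.2 and 1752.4 CPM in stress mice, a ratio of 0.993, and that of the G2M list had a ratio of 0.817. In NK/T cells these ratios were 1.22 and 1.34, and in B cells 0.705 and 0.715.

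Other features of the libraries also moved with the group. The sum of Cmss1, Lars2, Gphn, Cdk8 and Camk1d, 5 genes chosen after their values were seen, was higher in every stress mouse than in every control mouse in all 10 cell types. It went from 496.8 to 617.9 CPM in control mice to 1774.8 to 3191.7 CPM in stress mice in tumor cells, and its ratio was 4.55 there and 7.63 in NK/T cells. The 13 mitochondrial genes summed to 37115.5 to 47022.5 CPM in tumor cells of control mice and to 54127.3 to 57195.3 CPM in stress mice. Their part in the histone values was not tested. The ratio of the sum of the 5 genes was 7.03 in ECs, 10.8 in inflammatory myeloid cells, 7.9 in B cells and 10.3 in neutrophils. The summed histone level had ratios of 1.32, 0.672, 2.33 and 2.89 in these cell types. Median depth of tumor cells was 21971, 26149 and 32523 UMIs in control mice against 32080.5, 31343 and 31042 in stress mice. In the same order, the histone sums were 459.8, 415.6 and 438.0 CPM against 722.3, 893.1 and 726.7 CPM. With each tumor cell thinned to 5000 UMIs, 22 members were called higher, against 5.75% of all tested genes, and 0 lower, and the median log2 fold change was 0.75. Of the marker lists of the 9 other cell types, the EC list (Pecam1, Cdh5, Kdr and Ptprb) was higher in tumor cells of every stress mouse, with 8.42 to 12.4 CPM in control mice and 17 to 23.9 CPM under stress (ratio 1.83). The other lists overlapped, and the highest was that of inflammatory myeloid cells, with 19.6 to 60.1 CPM in control mice and 24, 44.2 and 125.7 CPM in stress mice 1 to 3. In ECs themselves the EC list summed to 3080.8 CPM or more. The part of these markers in the histone values was not tested.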

How the data were processed

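Tumor tissue of 3 control and 3 stress mice was sequenced as 10x Genomics libraries, 1 per mouse. The deposited matrices hold UMI counts for each gene in each cell, which the authors obtained with Cell Ranger on mm10 and did not normalize, per the labels and file headers. The gene annotation behind the counts is not given in the sources used here. In a further deposited table the authors give each cell's mouse, cluster and cell type and, as other values, its UMI and gene numbers. The authors removed doublets with Scrublet and cells with over 20% mitochondrial reads or under 200 genes, and cells were kept as annotated.

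For each mouse, the UMIs of the cells of a type were added up, and edgeR 4.0.16 under R 4.3.3 tested the sums (filterByExpr, TMM, quasi-likelihood test, Benjamini-Hochberg over all tested genes, threshold 0.05). The SE is the absolute log2 fold change divided by the square root of F. Cell types with under 10 cells in a mouse were not tested. Differences between cell types used limma 3.58.1 on log2 CPM with a prior count of 2. Phases were scored with scanpy 1.11.5 under Python 3.11.15 on cells thinned to 5000 UMIs (NK/T cells to 1000), with 50 control genes per list gene. Positions and transcript ends came from GENCODE M21 (GRCm38), where all 61 members were found, stem-loops from a letter search in its transcripts, and promoters from RefSeq. The edgeR and limma steps were tested on simulated data.

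Alternatives were RLE factors, no filter, DESeq2 1.42.0, a replicate block, leaving out each mouse, thinning, and subsets of clusters and of S phase cells. The fits with library size alone, without cluster 17 and in G1 cells of NK/T were chosen after seeing the data. Values per mouse are given for the 2 members of each family with the most UMIs, all H1 genes and every member past the threshold in tumor cells. Of each other list, at least the fold change is given for the 4 largest changes past the threshold. The same holds for Slbp, Npat, Casp8ap2, H2az1, H3f3a, H3f3b and H1f0. Other members are named from their values. The members and lists were chosen with earlier results of these data known. Depth was 149558935 to 187728350 UMIs per library, and 3 mice per group limit the precision.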

Additional observations from a re-analysis of the deposited data

Results flagged for a closer look

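Neutrophils entered no test, since control mouse 1 had 4 of them, but their summed histone level was 2.89 times as high in stress mice as in control mice. It stood at 771.7, 557.8 and 404.8 CPM in control mice (55 cells) and at 1897.5, 2133.6 and 981.4 CPM in stress mice (120 cells), without overlap. H1 genes made up the largest part, with means of 264.0 ± 78.5 and 779.6 ± 329.6 CPM. The share of neutrophils with a histone UMI after thinning to 1000 UMIs was 40.0% in control and 43.3% in stress mice, and the NK/T markers Cd3e, Nkg7 and Trbc2 summed to 21.4, 115.4 and 0.0 CPM in control and 139.5, 224.1 and 525.2 CPM in stress mice in these cells. The part of other cells in the value was not tested.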

How the results depend on the processing

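Of the 34 members called higher in tumor cells, 34 remained called with RLE factors, DESeq2, the replicate block and library size alone, 33 without cluster 17 and 31 with no filter on low counts. In the order named, these fits called 12.0%, 13.1%, 13.9%, 14.4%, 11.8% and 8.17% of all tested genes higher. The count of members called higher was 34 of 59 with all cells (12.0% of all tested genes), 22 of 55 with cells thinned to 5000 UMIs (5.75%), 22 of 58 in cluster 1 only (7.15%), 25 of 59 without cluster 4 (10.6%) and 25 of 57 in S phase cells (8.17%), where fewer cells or UMIs were used. Leaving out a mouse gave 14 to 32 of 59 (3.79% to 15.3% of all tested genes), with 22 without control replicate 1 (5.72%), 14 without control replicate 3 (3.79%), 21 without stress replicate 1 (7.32%) and 21 without stress replicate 2 (5.74%). Members called lower numbered 1 (H3c10) with no filter, DESeq2, the replicate block and without cluster 17, and 0 to 2 when leaving out a mouse (H3c10 and H2ac11 without control replicate 2). Of all tested genes, the first 4 of these fits called 1742 of 27812, 2516 of 18856, 2465 of 18856 and 1762 of 18786 lower. Without control replicate 2, 2822 of 19354 genes were lower. The cause was not tested. The median log2 fold change was 0.75 after thinning, 0.76 in S phase cells and 0.74 with library size alone.

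The replicate number did not pair the mice in tumor cells (correlations of same-numbered mice 0.50, 0.39 and -0.13), and 2 of 3 mice of 1 group correlated best with their own number in the other. In monocytes all 3 pairs were over 0.1 (0.48, 0.42 and 0.15), and the paired fit with the replicate block called 2 of 31 members there, where 0.947% of all tested genes were called higher. It called 4 of 25 in M-MDSCs, where 0.762% of all tested genes were called higher, 21 of 46 in NK/T cells (1.19%), 4 of 26 in DCs (4.45%), 4 of 10 in B cells (0.69%) and 0 of 41 in ECs (0.426%). In these 5 cell types not all pairs were over 0.1. The lowest correlation was 0.02 in M-MDSCs, 0.08 in NK/T cells, 0.03 in DCs, 0 in B cells and 0.02 in ECs. In all cell types named here but tumor cells, many tested members entered wholly or partly through the stress mice, so these counts are no support for a change.

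In NK/T cells 29 of 61 members were called with no filter (1.45% of all tested genes were), 9 of 46 with DESeq2 (0.884%), 3 of 14 in G1 cells only (0.453%) and 9 to 20 of 41 to 52 when leaving out a mouse (0.217% to 0.809%), with 9 of 45 without control replicate 2 (0.41%). In DCs the counts were 6 of 61 with no filter (2.91% of all tested genes), 1 of 6 in cluster 20 only (0.157%), 1 of 26 with library size alone (1.19%) and 0 to 2 of 18 to 37 when leaving out a mouse (0.596% to 2.53%; 0 without control replicate 2 or 3, 1 without stress replicate 1 or 2). In B cells they were 6 of 61 with no filter (1.18%) and 0 to 1 of 10 to 12 when leaving out a mouse (0.0894% to 0.258%). In M-MDSCs they were 9 of 60 with no filter (1.1%), 1 of 25 with DESeq2 (0.466%) and 0 to 3 of 25 to 30 when leaving out a mouse (0.113% to 0.525%; 1 without control replicate 1, 3 without stress replicate 3). ECs gave 3 of 41 with DESeq2 (1.45%), and monocytes 2 of 61 with no filter (0.589%) and 1 of 31 with DESeq2 (0.873%). Reversals concerned genes that were not called. H2bc12 stood at 0.16 in cluster 1 only, 0.14 in S phase cells, 0.12 with library size alone and -0.13 to 0.12 when leaving out a mouse. H2az1 stood at 0.11 and H3f3b at 0.12 with library size alone, and they ranged from -0.16 to 0.11 and from -0.18 to 0.06 when leaving out a mouse. In the tested cell types other than tumor cells, only 10 (B cells) to 46 (NK/T cells) members could be tested.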

Other observations

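Hepatic stellate cells, which were too few for a test, had 43.3% of their histone UMIs in H2B genes. H2B genes stood at 94.1 ± 19.3 CPM in control mice against 194.7 ± 48.2 CPM in stress mice without overlap. The other 4 families had stress means below the control means, but control mouse 2 was the highest control in each. H1, H2A, H3 and H4 stood at 330.4, 215.5, 86.2 and 100.6 CPM in control mouse 2. They stood at 106.7, 16.7, 16.7 and 53.3 CPM in control mouse 1 and at 116.7, 25.9, 0.0 and 25.9 CPM in control mouse 3. In stress mice they ranged from 72.7 to 127.9, 28.3 to 42.6, 9.45 to 39.1 and 51.7 to 60.4 CPM. Control mouse 2, with 6 cells, had 804.5 CPM in sum. The tumor markers Krt18, Krt8 and Afp summed to 136.7, 1910.6 and 1594.8 CPM in these cells of control mice 1 to 3 and to 49.3 to 366.0 CPM in stress mice. The EC list had 16.7, 0.0 and 13.0 CPM in control mice against 52.0, 60.4 and 200.7 CPM in stress mice. The DC list went the other way, with 196.7, 818.8 and 168.6 CPM against 18.9, 56.9 and 128.1 CPM. The part of these markers in the histone values was not tested.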
